A study of Homo sapiens with 10 samples.

Results

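The 42 genes described here encode the integrins, the laminins and 4 further proteins of the hemidesmosome or bound to it, measured in lines of human esophageal squamous cell carcinoma (ESCC). They were chosen by gene name: 18 integrin alpha subunit genes, 8 integrin beta subunit genes, 12 laminin chain genes, and COL17A1, DST, PLEC and CD151. They stand among 20501 genes in the tables of an interferon-beta (IFN-β) experiment and 19580 named genes in the tables of a knockdown experiment. No measured value entered the choice. RNA was sequenced in 10 libraries. KYSE30, KYSE180 and KYSE450, each an established ESCC line, gave 1 untreated library (the treatment protocol names PBS as the control) and 1 library from cells given IFN-β, a type I interferon, at 1000 IU/ml for 72 h. KYSE30 and KYSE180 also gave a pair of libraries each from cells that carried a lentivirus: 1 with the control vector and 1 in which IRF1-AS was knocked down. IRF1-AS is transcribed antisense to the gene of the transcription factor IRF1. The lines are the replicates of a treatment, and the labels do not say how many hairpins or clones stand behind the knockdown. No label says that libraries came from separate cultures of a line.

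Integrins are receptors made of 1 alpha and 1 beta subunit, and the pairing sets what they bind. The pair of ITGA6 and ITGB4 binds laminin-332 in the basement membrane and anchors the keratin network through plectin (PLEC), the epithelial form of dystonin (DST) and the transmembrane collagen COL17A1. Together with the tetraspanin CD151 they form the hemidesmosome, the junction that fixes basal squamous cells to the tissue below. Laminins are trimers of an alpha, a beta and a gamma chain. Laminin-332 contains the products of LAMA3 and LAMB3 and is the main laminin under stratified epithelia. Integrins that contain ITGB1 or ITGAV link the cell to collagen, fibronectin and other matrix proteins.

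LAMA3 and LAMB3, chains of 1 trimer, differed between lines in opposite directions in the IFN-β experiment, and ITGA4 was near 0 outside KYSE450. Promoter sequences are shown for these 3 genes, on which the line comparisons turn. Each runs 5′ to 3′ on the gene's strand from 250 bases before to 50 bases after a RefSeq start (GRCh38.p14), at chr18:23872770-23873069 (plus strand) for LAMA3, chr1:209651325-209651624 (minus strand) for LAMB3 and chr2:181457136-181457435 (plus strand) for ITGA4. Capitals mark matches to TGANTCA, the core bound by AP-1 factors.
LAMA3: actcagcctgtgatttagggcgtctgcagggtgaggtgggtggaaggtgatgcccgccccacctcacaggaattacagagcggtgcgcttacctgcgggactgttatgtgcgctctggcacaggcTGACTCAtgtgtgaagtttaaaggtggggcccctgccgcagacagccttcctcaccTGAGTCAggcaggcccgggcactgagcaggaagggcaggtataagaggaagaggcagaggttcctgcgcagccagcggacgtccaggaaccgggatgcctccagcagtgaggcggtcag
LAMB3: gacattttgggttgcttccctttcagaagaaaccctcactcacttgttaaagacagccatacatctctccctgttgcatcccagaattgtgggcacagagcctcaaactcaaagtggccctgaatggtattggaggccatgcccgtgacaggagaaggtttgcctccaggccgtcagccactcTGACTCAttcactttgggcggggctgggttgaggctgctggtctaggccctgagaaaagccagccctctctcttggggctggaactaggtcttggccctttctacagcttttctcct
ITGA4: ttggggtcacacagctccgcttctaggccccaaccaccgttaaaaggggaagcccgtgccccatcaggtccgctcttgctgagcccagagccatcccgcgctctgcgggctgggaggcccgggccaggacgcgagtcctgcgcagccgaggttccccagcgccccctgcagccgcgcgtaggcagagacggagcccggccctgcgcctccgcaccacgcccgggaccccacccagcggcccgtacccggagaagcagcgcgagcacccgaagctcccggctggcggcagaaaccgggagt
The LAMA3 window held 2 matches, at −125 and −69 from the start, and the LAMB3 window held 1, at −67. The ITGA4 window held none. LAMB3 has other starts in the table, and for it the window with a match is shown. The LAMA3 window lies inside the annotated gene (chromosome 18 at 23689443 to 23956222), not at its first base. The FPKM are given per gene and do not tell starts apart.

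The promoter table holds 28 of the 42 genes, with 37 windows. TGANTCA, which reads the same on both strands, was found in 4 of the 37 (10.8%), those of DST, ITGA5, LAMA3 and LAMB3, against 7.71% of 35116 windows of the same length. The core of the interferon-stimulated response element (GAAA, any 2 bases, GAAA), on either strand, was found in windows of COL17A1 and ITGB5 (2 of 37, 5.41%, against 3.57% of all). TTCNNNGAA, the core bound by STAT factors, was found in windows of ITGAE and LAMB2 (5.41% against 7.66%). These matches describe the sequence only.

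Values are FPKM (fragment counts scaled by transcript length and library total) as the authors deposited them, so levels can be set side by side between genes within a library. No read counts are listed, which leaves sequencing depth unknown and the values without a counting interval. The experiments were normalized separately and were tested separately. The RNA genes RMRP and RPPH1 held 26.5% of the summed FPKM in the treated KYSE450 library and 37.2% to 41.9% in the other IFN-β experiment libraries. In KYSE450 the median of all tested genes lay 0.41 log2 units above the untreated library after IFN-β, against −0.01 in KYSE30 and −0.03 in KYSE180. The part of RMRP and RPPH1 in this shift was not tested. Because of the shift, libraries were put on 1 scale by median-of-ratios factors before testing. Every log2 value below is on the scale log2(scaled FPKM + 1), which understates changes of low genes. The interferon genes ISG15, IFI6, OAS2 and IFIT1 rose and MX1 was higher by value in every line. C5orf56, the symbol of IRF1-AS in these tables, had 6.86 and 3.04 FPKM in KYSE30 and 1.08 and 0.948 in KYSE180 (vector, then knockdown). In KYSE180 the target was thus near 1 FPKM in both libraries, so the label "knockdown" could not be checked there. Of the squamous markers, KRT5 stood at 2.91 and 1.37 FPKM in KYSE30, 2346 and 1199 in KYSE180 and 3355 and 2382 in KYSE450 (untreated, then IFN-β), so this defining keratin was low in KYSE30, although the knockdown tables list it at 117 and 228 FPKM there. The summed FPKM of the leukocyte and endothelial markers did not pass 1.18 in any library, and that of the fibroblast markers reached 1.41 in the IFN-β experiment and 5.48 in the knockdown experiment.

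Of the 42 genes, 28 were tested in the IFN-β experiment, for which a gene had to have 1 FPKM or more in 2 or more libraries, and 24 in the knockdown experiment. The 14 genes tested in neither never passed 0.84 FPKM. They include the leukocyte integrin genes ITGAL, ITGAM, ITGAX, ITGAD, ITGB2 and ITGB7, the ITGB3 subunit of platelets and endothelium, the muscle-type subunit ITGA7, and ITGA8, which was listed at 0 in all 10 libraries. The others are ITGA9, ITGA10, ITGA11, LAMA4 and LAMB4. ITGAE, which pairs with ITGB7 on intraepithelial lymphocytes, was at 32.4 and 28.4 FPKM in KYSE30, 40.8 and 28.5 in KYSE180 and 43.0 and 22.6 in KYSE450 (untreated, then IFN-β), while ITGB7 stayed at or below 0.56 FPKM. Of the exon bases annotated for ITGAE, 6.41% overlap the gene HASPIN on the other strand, and the sources used here do not say whether reads were assigned by strand. Among the tested genes, ITGA2B, ITGA4, LAMA1 and LAMA2 passed the filter through 1 line only and so had to differ between lines. Their calls below are descriptions. LAMC3 passed the filter without a KYSE30 library, ITGA1 without a KYSE180 library and ITGB4 without a KYSE450 library. Calls of these genes against those lines are likewise descriptions.

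**Figure D1:**
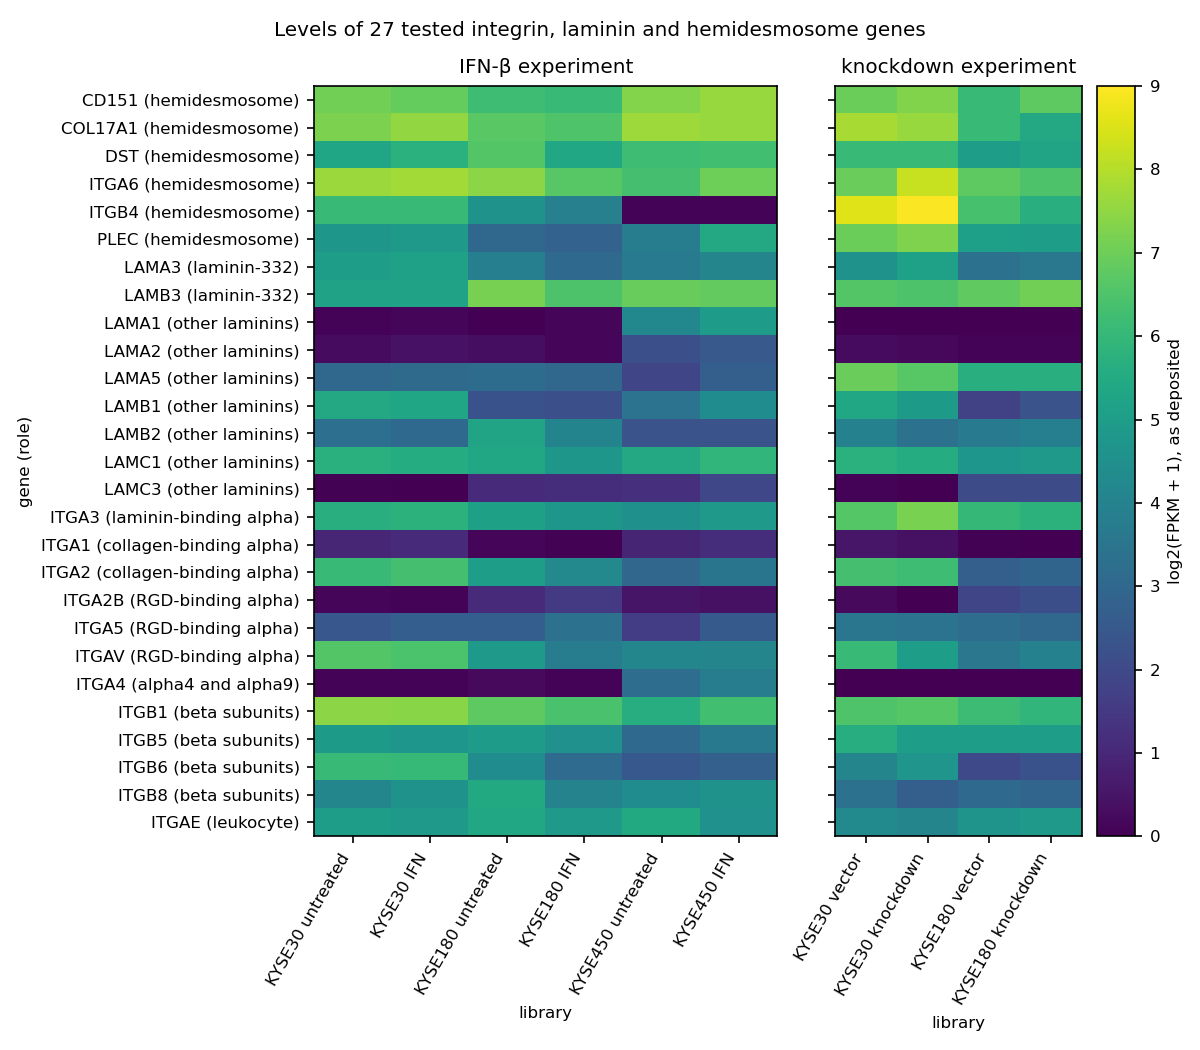
Levels of 27 tested genes as log2(FPKM + 1), as deposited, with genes in rows by role and libraries in columns, the IFN-β experiment on the left and the knockdown experiment on the right. ITGB4 is near 0 in both KYSE450 libraries (0.06 and 0.07 FPKM), the same libraries in which ITGA4, LAMA1 and LAMA2 have their highest values.

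Of the hemidesmosome genes all but ITGB4 were at 6.13 FPKM or more in the 6 libraries of the IFN-β experiment. ITGA6 was the highest of the 42 genes in all KYSE30 and KYSE180 libraries of the IFN-β experiment, and COL17A1 was the highest in both KYSE450 libraries. ITGB4, the partner of ITGA6 in the hemidesmosome (chromosome 17 at 75721328 to 75757818, GRCh38), was at 66.7 and 67.2 FPKM in KYSE30, 23.2 and 14.2 in KYSE180 and 0.06 and 0.07 in KYSE450 (untreated, then IFN-β). The 2 KYSE450 libraries were near 0 and lay far below all others. The difference from KYSE30 was −6.09 ± 0.20 in KYSE450 and −2.05 ± 0.20 in KYSE180 (log2 fold change with SE, 2 libraries per line, limma, adjusted p = 4.04e-06 and 0.000252), and KYSE450 was also lower than KYSE180 (−4.03 ± 0.20, adjusted p = 2.3e-05). RNA from all cells of a culture was measured together, so fewer cells with the transcript and less transcript per cell cannot be told apart.

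The remaining hemidesmosome genes were present in KYSE450. COL17A1, the collagen that spans the membrane at the junction, stood at 147 and 187 FPKM in KYSE30, 102 and 90.5 in KYSE180 and 202 and 193 in KYSE450. CD151, the tetraspanin that binds laminin-receptor integrins, was at 135 and 117 FPKM in KYSE30, 73.1 and 67.5 in KYSE180 and 161 and 192 in KYSE450. Both were lowest in KYSE180, where limma placed COL17A1 at −1.01 ± 0.24 and CD151 at −1.06 ± 0.16 against KYSE30 (adjusted p = 0.0104 and 0.00149). In KYSE450 neither passed the test against KYSE30 (0.20 ± 0.24 and 0.43 ± 0.16, adjusted p = 0.505 and 0.0528). Of the exon bases annotated for CD151, 6.53% overlap the gene POLR2L on the other strand.

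ITGA6 itself, which can also pair with ITGB1, was at 200.04 and 216 FPKM in KYSE30, 173 and 100.5 in KYSE180 and 79.7 and 127 in KYSE450. It was lower than in KYSE30 in KYSE180 (−0.88 ± 0.24, limma, adjusted p = 0.0209; −0.46 in the untreated and −1.30 in the treated libraries alone) and in KYSE450 (−1.09 ± 0.24, adjusted p = 0.00934). PLEC, the plakin that ties keratin filaments to the ITGB4 tail, stood at 26.1 and 28.01 FPKM in KYSE30, 7.2 and 6.13 in KYSE180 and 13.2 and 42.1 in KYSE450, with KYSE180 lowest (−2.08 ± 0.30 against KYSE30, adjusted p = 0.00152) and the 2 KYSE450 libraries far apart. DST, which encodes the other plakin of the plaque, was at 38.3 and 52.4 FPKM in KYSE30, 95.1 and 40.4 in KYSE180 and 72.8 and 75.6 in KYSE450 and passed no line comparison in these 6 libraries. The DST level in untreated KYSE180 was the highest of the 6 and that in treated KYSE180 the next to lowest, a spread within 1 line as wide as that between lines. Of the 6 hemidesmosome genes, 5 were lower in KYSE180 than in KYSE30 (26.2% of all genes were), and 2, ITGA6 and ITGB4, were lower in KYSE450 than in KYSE30 (26% of all genes were).

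LAMA3 and LAMB3, chains of laminin-332, did not follow 1 order across the lines. LAMA3, its alpha chain, was at 31.2 and 34.7 FPKM in KYSE30, 13.7 and 7.4 in KYSE180 and 12.4 and 16.0 in KYSE450. LAMB3, its beta chain, was at 35.3 and 35.2 FPKM in KYSE30, 141 and 89.0 in KYSE180 and 118 and 114 in KYSE450. LAMA3 was highest in both KYSE30 libraries, while LAMB3 was lowest there. Against KYSE30, KYSE180 was lower in LAMA3 (−1.83 ± 0.23, limma, adjusted p = 0.000698) but higher in LAMB3 (1.42 ± 0.19, adjusted p = 0.00107). In KYSE450, LAMA3 was again lower (−1.22 ± 0.23, adjusted p = 0.00414) and LAMB3 again higher (1.64 ± 0.19, adjusted p = 0.000575). The FPKM of LAMB3 was 1.13 and 1.01 times that of LAMA3 in the untreated and treated KYSE30 libraries, 10.3 and 12.0 times in KYSE180 and 9.52 and 7.17 times in KYSE450. The promoter windows shown above for LAMA3 and LAMB3 both hold TGANTCA, and no binding was measured.

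Of the other laminin chains, 2 alpha chains had their highest values in KYSE450 and were under 1 FPKM in the other lines. LAMA1, the alpha chain of the laminin of early embryonic basement membranes, lies on chromosome 18 at 6941744 to 7117814 and was at 0.06 and 0.08 FPKM in KYSE30, 0.02 and 0.08 in KYSE180 and 17.2 and 29.8 in KYSE450. LAMA2, the alpha chain of muscle and nerve basement membranes, was at 0.21 and 0.35 FPKM in KYSE30, 0.26 and 0.11 in KYSE180 and 3.54 and 4.67 in KYSE450. LAMA1 was higher in KYSE450 than in KYSE30 by 4.50 ± 0.16 and LAMA2 by 2.00 ± 0.15 (limma, adjusted p = 4.7e-06 and 8.27e-05), and against KYSE180 the values were 4.54 ± 0.16 and 2.16 ± 0.15 (adjusted p = 7.08e-06 and 7.31e-05). An annotated antisense gene, AP002409.1, shares 10.3% of the exon bases of LAMA1, and reads of the 2 strands cannot be told apart there if strand was not used.

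The beta chains differed as well. LAMB1, the beta chain of laminin-511 and laminin-111, was at 42.5 and 38.3 FPKM in KYSE30, 3.84 and 3.57 in KYSE180 and 9.85 and 19.98 in KYSE450, with KYSE180 lowest (−3.33 ± 0.19 against KYSE30, limma, adjusted p = 2.72e-05) and KYSE450 between (−1.51 ± 0.19, adjusted p = 0.000812). LAMB2, the beta chain that replaces LAMB1 in other basement membranes, had another order, at 8.75 and 7.53 FPKM in KYSE30, 37.6 and 15.7 in KYSE180 and 3.96 and 3.88 in KYSE450. KYSE180 was higher than KYSE30 in LAMB2 (1.26 ± 0.24, adjusted p = 0.00459; 1.74 untreated and 0.78 treated) and KYSE450 lower (−0.93 ± 0.24, adjusted p = 0.0162), although the 2 KYSE180 libraries were themselves more than 2-fold apart. LAMC1, the gamma chain of most laminins, varied less, at 50.9 and 46.8 FPKM in KYSE30, 41.2 and 26.3 in KYSE180 and 41.6 and 60.04 in KYSE450, and was lower in KYSE180 than in KYSE30 (−0.78 ± 0.18, adjusted p = 0.0104), a call that was lost on the values as deposited (adjusted p = 0.0823). LAMA5, the alpha chain of laminin-511, was at 7.08 and 7.58 FPKM in KYSE30, 8.02 and 6.84 in KYSE180 and 2.72 and 5.57 in KYSE450, with KYSE450 below KYSE30 (−0.81 ± 0.19, adjusted p = 0.0105). LAMC3 was at or under 0.03 FPKM in KYSE30, 1.10 and 1.25 in KYSE180 and 1.40 and 2.75 in KYSE450, and was higher in KYSE180 (1.03 ± 0.15, adjusted p = 0.00135) and in KYSE450 (1.58 ± 0.15, adjusted p = 0.000218) than in KYSE30. It passed the filter through KYSE180 and KYSE450 only, so these calls are descriptions.

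Among the alpha subunits, ITGA4 was likewise highest in KYSE450 and under 1 FPKM in the other lines. ITGA4, which pairs with ITGB1 or ITGB7 and binds fibronectin and VCAM1, lies on chromosome 2 at 181457202 to 181536187 and was at 0.07 and 0.05 FPKM in KYSE30, 0.17 and 0.06 in KYSE180 and 8.29 and 12.7 in KYSE450. Both KYSE450 libraries stood above all others (3.44 ± 0.15 against KYSE30 and 3.39 ± 0.15 against KYSE180, limma, adjusted p = 9.57e-06 and 1.47e-05). The main collagen receptor subunit of epithelia, ITGA2, went the other way and was at 66.4 and 81.0 FPKM in KYSE30, 31.3 and 18.0 in KYSE180 and 6.82 and 10.3 in KYSE450. The order KYSE30, KYSE180, KYSE450 held in all pairs of libraries of the same arm, with differences from KYSE30 of −1.81 ± 0.24 in KYSE180 and −3.04 ± 0.24 in KYSE450 (adjusted p = 0.00106 and 0.000124) and a further −1.23 ± 0.24 between KYSE180 and KYSE450 (adjusted p = 0.00518). ITGA1, the other collagen receptor subunit tested, was low, at 0.96 and 1.15 FPKM in KYSE30, 0.08 and 0.03 in KYSE180 and 0.89 and 1.24 in KYSE450, and lower in KYSE180 than in KYSE30 (−1.02 ± 0.13, adjusted p = 0.000902).

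ITGA3, which with ITGB1 forms a laminin receptor outside the hemidesmosome, was at 49.0 and 54.4 FPKM in KYSE30, 34.0 and 26.4 in KYSE180 and 21.6 and 27.4 in KYSE450. It was lower in KYSE180 (−0.99 ± 0.16, limma, adjusted p = 0.00236) and in KYSE450 (−1.10 ± 0.16, adjusted p = 0.00154) than in KYSE30, and the last 2 lines did not pass a test against each other (adjusted p = 0.577). ITGAV, the alpha subunit of the receptors for vitronectin and latent TGF-β, was at 96.6 and 86.4 FPKM in KYSE30, 28 and 12.7 in KYSE180 and 16.3 and 16.1 in KYSE450. The 2 KYSE30 libraries were the highest by a wide margin, with −2.44 ± 0.22 in KYSE180 and −2.47 ± 0.22 in KYSE450 against them (adjusted p = 0.000165 and 0.000164). ITGA5, the fibronectin receptor subunit, was at 4.39 and 5.47 FPKM in KYSE30, 5.39 and 9.14 in KYSE180 and 2.12 and 4.86 in KYSE450, lower in KYSE450 than in KYSE30 (−0.53 ± 0.17, adjusted p = 0.0412), a call that was lost as deposited (adjusted p = 0.225), with no filter (0.0631) and at an average of 5 FPKM (0.0503). ITGA2B, known from platelets, reached 1.14 and 1.86 FPKM in KYSE180 and 0.41 or less in the other lines (1.10 ± 0.18 in KYSE180 against KYSE30, adjusted p = 0.00248).

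The beta subunits that pair with ITGAV did not share 1 pattern. ITGB6, the epithelial partner that activates latent TGF-β, was at 66.4 and 64.0 FPKM in KYSE30, 19.7 and 7.88 in KYSE180 and 4.58 and 5.76 in KYSE450, and KYSE30 was the highest line here too (−2.51 ± 0.28 in KYSE180 and −3.49 ± 0.28 in KYSE450, limma, adjusted p = 0.000478 and 0.00013). An annotated gene on the same strand, AC092153.1, shares 20.6% of the exon bases of ITGB6, and its part in these values was not tested. ITGB5, a vitronectin receptor subunit, was at 28.6 and 25.7 FPKM in KYSE30, 29.4 and 22.2 in KYSE180 and 7.38 and 11.3 in KYSE450, lower in KYSE450 than in KYSE30 (−1.52 ± 0.16, adjusted p = 0.00039) and KYSE180 (−1.22 ± 0.16, adjusted p = 0.000961), while KYSE180 against KYSE30 did not pass (adjusted p = 0.158). ITGB8, a further activator of latent TGF-β, was at 16.6 and 23.9 FPKM in KYSE30, 42.9 and 15.2 in KYSE180 and 20.01 and 23.1 in KYSE450 and passed no line comparison (adjusted p = 0.813, 0.922 and 0.894). ITGB1, the most widely shared beta subunit, was at 171 and 166 FPKM in KYSE30, 108 and 85.2 in KYSE180 and 48.2 and 77.0 in KYSE450 and lower than in KYSE30 by test in KYSE180 (−1.03 ± 0.17, adjusted p = 0.00257) and in KYSE450 (−1.50 ± 0.17, adjusted p = 0.000517).

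**Figure D2:**
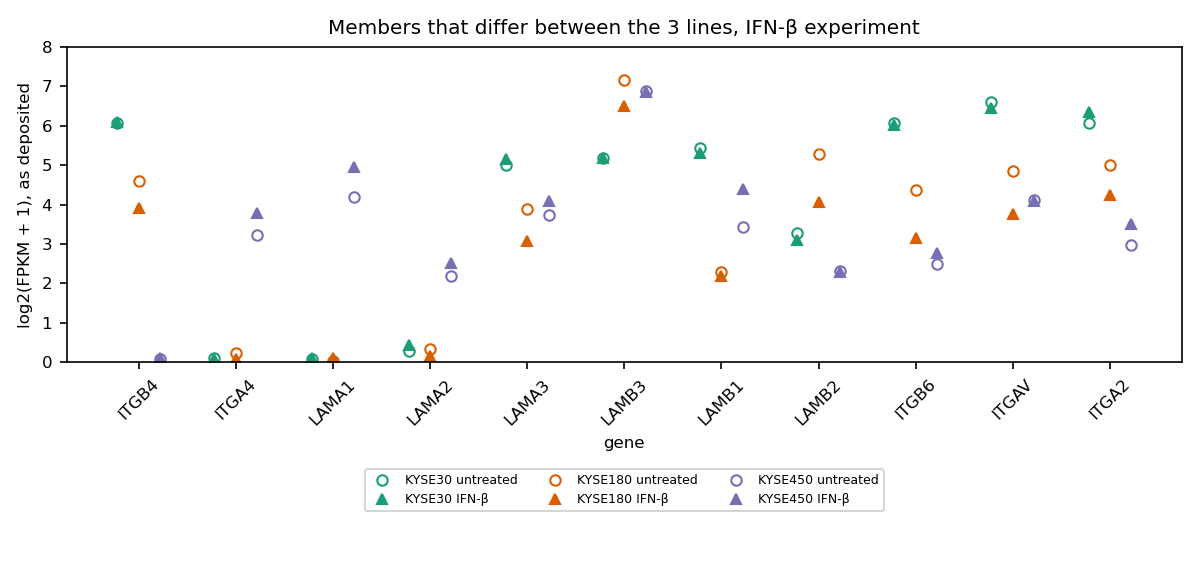
Values of 11 members as log2(FPKM + 1), as deposited, in the 6 libraries of the IFN-β experiment, with lines by colour, untreated libraries as open circles and treated ones as filled triangles. ITGA4, LAMA1 and LAMA2 are higher in both KYSE450 libraries than in the other 4, ITGB4 is near 0 there, and LAMB3 is lowest in KYSE30 where LAMA3 is highest.

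Counted over the tested genes, KYSE180 was higher than KYSE30 in 4 (25.9% of all 12528 genes were called higher) and lower in 15 (26.2% of all were called lower), 19 of 28 in all (52.1% of all genes). The median log2 fold change of the 28 was −0.83. As deposited, without scaling, the split was 4 higher and 14 lower among these genes and 3452 higher and 1936 lower among all, against 3244 and 3280 after scaling. KYSE450 was higher than KYSE30 in 5 and lower in 13 (24.9% and 26% of all genes, 50.9% in either direction), with a median of −0.30. Between KYSE450 and KYSE180, 11 were higher and 8 lower in KYSE450 (27% and 28% of all genes, 55% in either direction), with a median of 0.14. Over all genes the median was within 0.01 of 0 in each line comparison. The counts include the 4 genes that had to differ, and ITGA1, ITGB4 and LAMC3, each of which passed the filter without 1 line. The fit removes the treatment difference shared by the lines. The error of this test is how unevenly the lines differed between arms, pooled over lines and moderated across genes. The p-values do not extend to other cultures of these lines, and libraries of 1 line differ in treatment.

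The squamous markers moved with the same line comparisons. All 8 of them (KRT5, KRT14, KRT6A, KRT17, TP63, SFN, DSG3 and DSP) were higher in KYSE180 than in KYSE30, and all 8 in KYSE450 than in KYSE30, with medians of 4.60 and 3.45. Their summed FPKM ran from 184 to 8256 over the 6 libraries. Their part in the differences of the integrin and laminin genes was not tested.

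The knockdown experiment gave a second set of libraries of KYSE30 and KYSE180, normalized apart from the first. There 2 of the 24 tested genes were higher in KYSE180 and 13 lower, 15 in all (12.7% and 12.4% of all 11907 genes, 25.1% in either direction), with a median of −1.05, where that over all genes was within 0.01 of 0. Across the 24 genes tested in both sets, 20 had the same sign in both (75.2% of the 10521 genes tested in both did), and the 2 log2 fold changes correlated at r = 0.84, and at 0.82 over all genes. These are correlations across genes of libraries from the same lines, not across replicates. The same direction passed the test in both sets for 13 genes, 11 lower and 2 higher in KYSE180, where 20.4% of all genes did so. The 2 higher ones, ITGA2B and LAMC3, entered the second test through KYSE180 only and are no sign of agreement, and no gene of the 24 was called in opposite directions. In this set 6 of the 8 squamous markers were called higher in KYSE180, with summed FPKM from 892 to 9563 over the 4 libraries, and their part was not tested here either.

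The genes lower in KYSE180 in both sets included ITGB4, COL17A1 and PLEC of the hemidesmosome, the laminin chains LAMA3, LAMB1 and LAMC1, the alpha subunits ITGA2, ITGA3 and ITGAV, and ITGB6. ITGB4 stood at 380.3 and 495 FPKM in KYSE30 and 82.0 and 49.4 in KYSE180 in the second set (vector, then knockdown; −2.83 ± 0.29, limma, adjusted p = 0.00663). ITGA2 was at 80.3 and 73.4 FPKM in KYSE30 and 5.64 and 6.39 in KYSE180 (−3.55 ± 0.20, adjusted p = 0.00207) and LAMB1 at 39.8 and 29.1 FPKM in KYSE30 and 2.32 and 3.92 in KYSE180 (−3.18 ± 0.31, adjusted p = 0.00606). All 3 were several-fold lower in both KYSE180 libraries than in either KYSE30 library.

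COL17A1 was at 225 and 193 FPKM in KYSE30 and 67.2 and 42.2 in KYSE180 (−2.03 ± 0.19, limma, adjusted p = 0.00569), PLEC at 125 and 153 FPKM in KYSE30 and 32.9 and 31.9 in KYSE180 (−2.14 ± 0.18, adjusted p = 0.00463) and ITGB6 at 16.0 and 24.7 FPKM in KYSE30 and 3.01 and 3.8 in KYSE180 (−2.32 ± 0.21, adjusted p = 0.00515). For none of the 3 did the lines overlap. ITGA2B, at 0.159 and 0.0158 FPKM in KYSE30 and 2.65 and 3.48 in KYSE180, and LAMC3, at 0.066 and 0.0167 FPKM in KYSE30 and 3.3 and 3.29 in KYSE180, were the 2 called higher in KYSE180 in both sets. Both passed the filter of the second set through KYSE180 only, so they had to differ there, and ITGA2B had to differ in the first set as well. LAMA3 was at 23.2 and 34.1 FPKM in KYSE30 and 9.47 and 11.2 in KYSE180 (−1.44 ± 0.19, adjusted p = 0.0112). ITGA3 was at 97.0 and 146 FPKM in KYSE30 and 63.2 and 54.2 in KYSE180 (−1.09 ± 0.24, adjusted p = 0.0362; −0.72 in the vector libraries alone), and LAMC1 at 53.0 and 46.7 FPKM in KYSE30 and 25.4 and 27.8 in KYSE180 (−0.96 ± 0.19, adjusted p = 0.0296). ITGAV, with −1.86 ± 0.39 (adjusted p = 0.0315), differed by −1.12 in the knockdown libraries alone. Calls for ITGA3, ITGAV, LAMC1 and DST in this set were lost with no filter on low values (adjusted p between 0.0554 and 0.0884), and that for ITGA3 also as deposited (0.0526).

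LAMB3, called higher in KYSE180 in the first set, was at 95.7 and 88.7 FPKM in KYSE30 and 112 and 133 in KYSE180 in the second (0.32 ± 0.20, limma, adjusted p = 0.286), and LAMB2 was at 14.5 and 9.15 FPKM in KYSE30 and 12.1 and 13.8 in KYSE180 (0.08 ± 0.27, adjusted p = 0.852). CD151 (−0.78 ± 0.20, adjusted p = 0.0507), ITGA6 (−1.06 ± 0.39, adjusted p = 0.113) and ITGB1 (90.4 and 97.8 FPKM in KYSE30 and 71.5 and 59.8 in KYSE180; −0.60 ± 0.18, adjusted p = 0.079) were likewise called in the first set, there lower in KYSE180, and not in the second. For LAMB3 the KYSE180 libraries were again the higher ones by value, and for LAMB2 the lines overlapped. The FPKM of LAMB3 was 4.13 and 2.60 times that of LAMA3 in KYSE30 in this set and 11.8 and 11.9 times in KYSE180 (vector, then knockdown). In the other direction, LAMA5 (122 and 99.1 FPKM in KYSE30 and 49.4 and 49.7 in KYSE180) and DST (66.1 and 68.3 FPKM in KYSE30 and 31.3 and 37.1 in KYSE180) were called lower in KYSE180 in the second set alone (−1.21 ± 0.19 and −1.04 ± 0.18, adjusted p = 0.0166 and 0.0212). Whether the line difference itself differed between the sets was not tested, as their values were normalized separately.

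**Figure D3:**
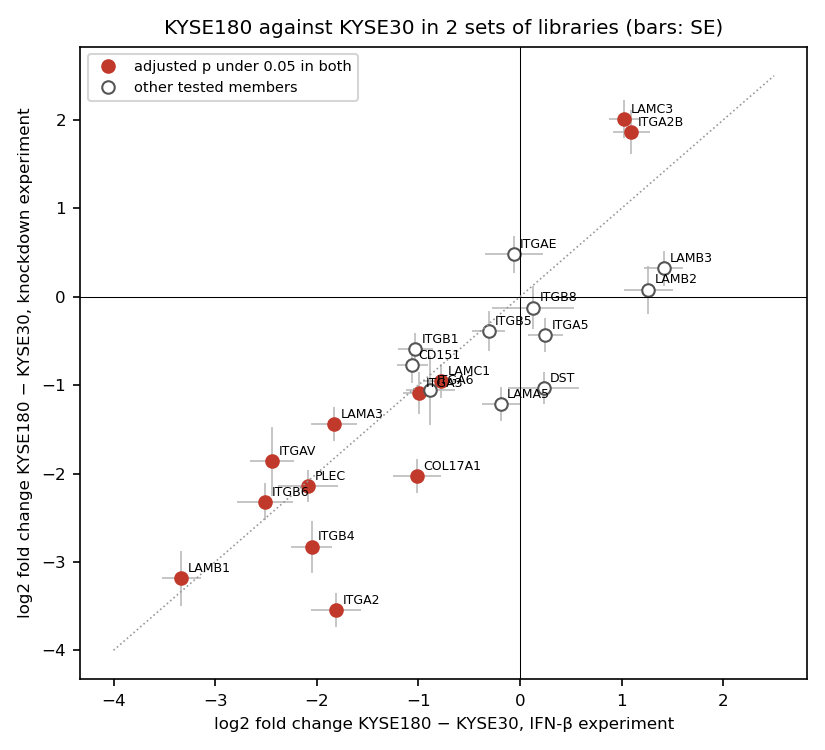
Log2 fold change of KYSE180 against KYSE30 for 23 genes tested in both experiments, from the IFN-β libraries on the horizontal axis and from the knockdown libraries on the vertical axis, with SE as bars and the dotted line marking equal values. The 12 filled points passed an adjusted p of 0.05 in both sets, 10 of them in the lower left part of the plot with LAMB1 lowest on the horizontal axis and ITGA2 on the vertical axis.

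The next question was whether the genes responded to IFN-β. None of the 28 passed the test (0.575% of all genes did, 72 of 12528, with 0.559% higher and 0.016% lower), and 5 of the 28 had an unadjusted p under 0.05 in limma, as 1353 of all genes did. Their median log2 fold change was −0.12, against −0.01 over all genes, and 9 lay above 0 and 19 below. The 5 were ITGA5 (0.50 ± 0.14), ITGAV (−0.57 ± 0.18), LAMB2 (−0.60 ± 0.20), ITGAE (−0.68 ± 0.23) and LAMB3 (−0.39 ± 0.16), with SE over 3 lines and adjusted p between 0.338 and 0.454. The first 4 and ITGB6 (−0.46 ± 0.23, adjusted p = 0.514) were the largest changes in either direction. ITGA5 and LAMA1 were higher after IFN-β in every line, where 17.3% of all genes were. LAMA1 was at 0.08 FPKM or less in all KYSE30 and KYSE180 libraries, too low to give a direction there. CD151, ITGAE, ITGAV, ITGB6, LAMB2 and LAMB3 were lower in every line after scaling, where 18.7% of all genes were, but as deposited CD151 and ITGB6 were higher in KYSE450 (0.25 and 0.28). For LAMB3 the KYSE30 difference was only −0.000781 (35.26 to 35.2 FPKM).

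For ITGA5 the treated library of KYSE30 differed by 0.27 on the log2 scale, that of KYSE180 by 0.70 and that of KYSE450 by 0.52, from the levels given above for this fibronectin receptor subunit. ITGAV had −0.16, −1.04 and −0.50 in the same order. LAMB2 had −0.19, −1.16 and −0.44, and ITGAE had −0.18, −0.45 and −1.40. ITGAV, LAMB2 and ITGAE each differed least in KYSE30. As deposited, the KYSE450 values were higher for all 5, at 0.91 for ITGA5, −0.02 for ITGAV, −0.02 for LAMB2, −0.90 for ITGAE and −0.04 for LAMB3.

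By size alone, with 1 library per arm and no test, KYSE180 held most of the larger differences. After IFN-β, 5 of the 28 were at least 2-fold lower in KYSE180 (2.2% of all genes were) and none was 2-fold higher (1.36% of all). They were ITGB8 (42.9 to 15.2 FPKM), ITGB6 (19.7 to 7.88), DST (95.1 to 40.4), LAMB2 (37.6 to 15.7) and ITGAV (28 to 12.7), which include ITGAV and both of its partners that activate latent TGF-β. In that line 24 of the 28 were below 0, with a median of −0.32. Over all tested genes the median was 0.0008 there, −0.007 in KYSE30 and −0.009 in KYSE450. The share of all genes below 0 in each line was not counted. In KYSE30 no gene was 2-fold higher or lower (1.18% and 0.0639% of all genes), 15 were above 0 and 13 below, and the median was 0.02. In KYSE450, PLEC was 2-fold higher (13.2 to 42.1 FPKM, 1.11 scaled and 1.60 as deposited, where 1.77% of all genes were) and ITGAE 2-fold lower after scaling (43.0 to 22.6 FPKM, −1.40 scaled and −0.90 as deposited, where 0.886% of all genes were), with a median of −0.02.

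**Figure D4:**
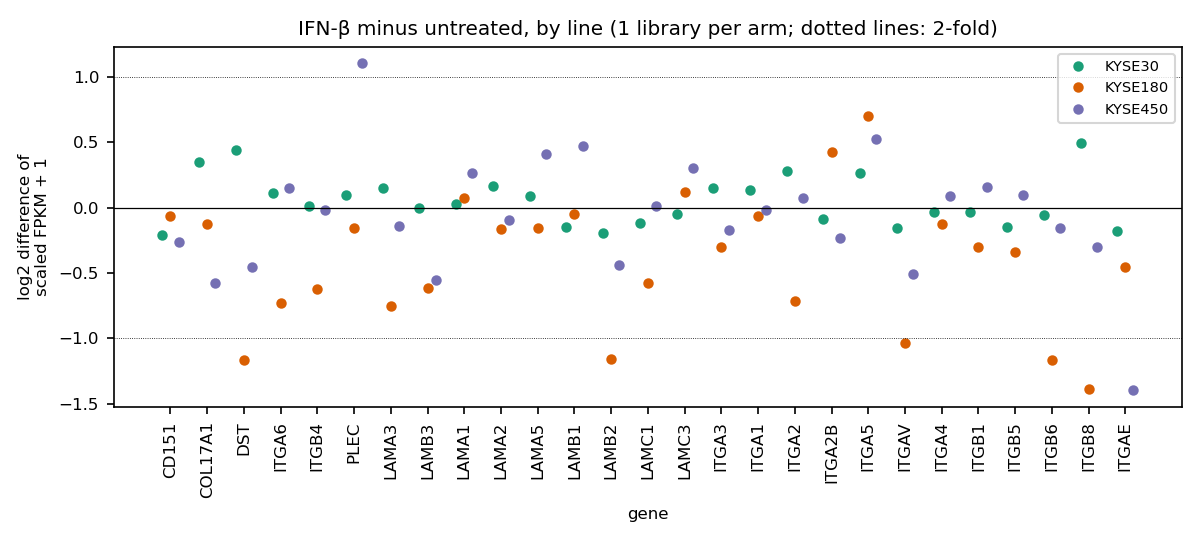
Difference between the IFN-β and untreated library of each line for 27 tested genes, as log2 of scaled FPKM + 1, with lines by colour and dotted lines at 2-fold. The KYSE180 points of ITGB8, ITGB6, DST, LAMB2 and ITGAV lie below the lower dotted line, and the KYSE450 point of PLEC above the upper one.

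IRF1-AS knockdown was compared with vector control in the same way. None of the 24 tested genes passed the test, and none had an unadjusted p under 0.05 in limma (of all 11907 genes 0% passed and 762 had an unadjusted p under 0.05), with 1 residual degree of freedom per gene. The median log2 fold change was −0.03, against −0.01 over all genes. The 5 largest were CD151 (0.48 ± 0.20), ITGA6 (0.47 ± 0.39), COL17A1 (−0.46 ± 0.19), ITGB8 (−0.44 ± 0.24) and ITGB6 (0.40 ± 0.21), with SE over 2 lines and adjusted p between 0.784 and 0.849.

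CD151 stood at 124 and 156 FPKM in KYSE30 and 67.0 and 109 in KYSE180 (vector, then the library labelled knockdown), higher in both lines by value. COL17A1, given above, was lower in both. ITGA6, at 123 and 301 FPKM in KYSE30 and 107 and 87.8 in KYSE180, was 2-fold higher in KYSE30 alone (1.27% of all genes were 2-fold higher there). ITGAV, at 65.9 and 31.3 FPKM in KYSE30 and 10.8 and 14.3 in KYSE180, was 2-fold lower in KYSE30 alone (3.68% of all genes). In the KYSE180 libraries no gene of the group was 2-fold higher or lower (1.26% and 2.37% of all genes). CD151, ITGB6 and LAMA3 were higher in both lines (24.9% of all genes were) and COL17A1, ITGA5, ITGB5 and ITGB8 lower in both (28.3% of all genes were). ITGB5 was at 48.3 and 32.0 FPKM in KYSE30 and 31.8 and 31.1 in KYSE180 and ITGB8 at 9.51 and 5.63 FPKM in KYSE30 and 7.52 and 6.61 in KYSE180, so both integrin beta subunits were within 2-fold in each line.

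**Figure D5:**
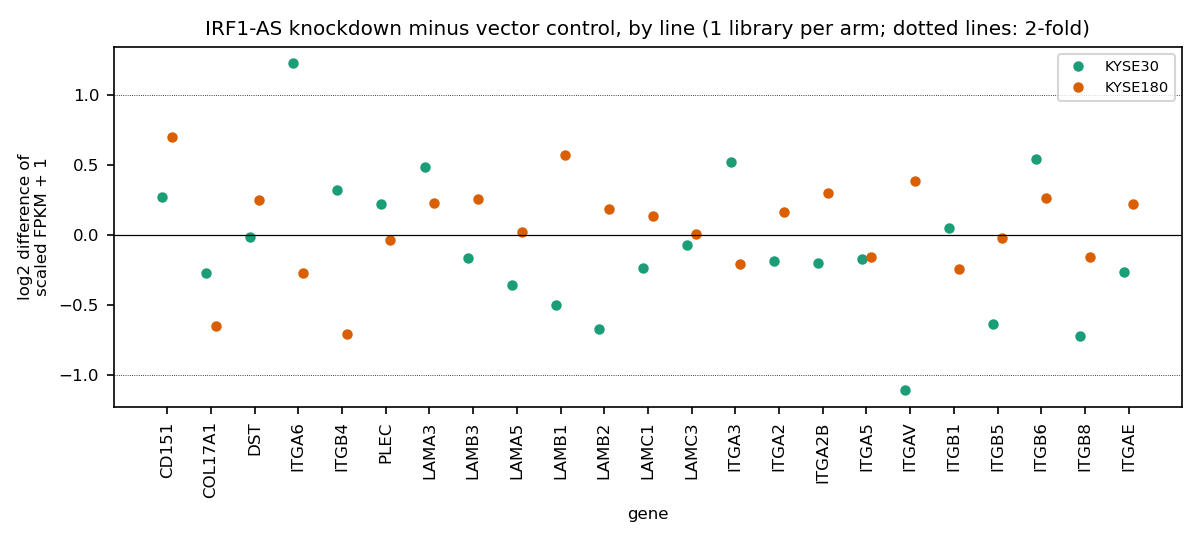
Difference between the knockdown and vector library of KYSE30 and KYSE180 for 23 tested genes, as log2 of scaled FPKM + 1, with dotted lines at 2-fold. ITGA6 lies above and ITGAV below the 2-fold lines in KYSE30, and all KYSE180 points lie between them.

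Other genes of cell adhesion were read as 4 lists. In the list of 25 integrin adaptors and focal adhesion genes, 23 were tested in the IFN-β experiment and none was called for IFN-β (median −0.06, all genes −0.01). The largest values were those of ZYX, the focal adhesion protein zyxin (0.38 ± 0.26), and TNS3, a tensin (−0.34 ± 0.15; limma, adjusted p = 0.609 and 0.483). Against KYSE30, 5 were higher and 10 lower in KYSE180 (25.9% and 26.2% of all genes), and 3 higher and 7 lower in KYSE450 (24.9% and 26%). FERMT1, the epithelial kindlin that activates integrins at the beta tail, was lower in KYSE180 (−2.26 ± 0.21, adjusted p = 0.000198). PTK2, the focal adhesion kinase, was lower in KYSE180 (−1.43 ± 0.17, adjusted p = 0.000643) and in KYSE450 (−1.46 ± 0.17, adjusted p = 0.00061), and PXN, the scaffold paxillin, in KYSE450 (−1.93 ± 0.21, adjusted p = 0.000389). PARVB, a parvin of the ILK complex, was higher in both (1.34 and 1.98).

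Of 21 matrix ligands and basement membrane genes, 18 were tested and none was called for IFN-β. Those with the largest values were TNC (−1.02 ± 0.26, limma, adjusted p = 0.276), which encodes the matrix glycoprotein tenascin-C, and NPNT (−0.73 ± 0.22, adjusted p = 0.369). Between lines, 6 were higher and 9 lower in KYSE180 than in KYSE30 (25.9% and 26.2% of all genes), and 5 higher and 8 lower in KYSE450 (24.9% and 26%). The smallest p-values belonged to 3 integrin ligands. FN1, which encodes fibronectin, was at 30.3 and 22.2 FPKM in KYSE30, 0.15 and 0.14 in KYSE180 and 0.28 and 0.64 in KYSE450, SPP1, which encodes osteopontin, at 45.5 and 58.5 FPKM in KYSE30, 1.07 and 0.38 in KYSE180 and 0.08 and 0.32 in KYSE450, and TGFBI, a matrix protein bound by several integrins, at 106 and 85.5 FPKM in KYSE30, 0.22 and 0.53 in KYSE180 and 0.19 and 0.4 in KYSE450. All 3 were far higher in both KYSE30 libraries than in the other 4 (−4.66 ± 0.20, −5.11 ± 0.24 and −6.27 ± 0.20 in KYSE180 against KYSE30, limma, adjusted p = 8.76e-06, 1.34e-05 and 5.17e-06). FN1 and TGFBI passed the filter through KYSE30 only and so had to differ between lines. SPP1 reached 1 FPKM outside KYSE30 only in untreated KYSE180. These calls are descriptions. In the knockdown experiment FN1 (−2.34 ± 0.48, limma, adjusted p = 0.0303) and TGFBI (−4.99 ± 0.31, adjusted p = 0.00244) were called lower in KYSE180. SPP1 was not (−2.02 ± 1.02, adjusted p = 0.212), with 26.9 and 0.988 FPKM in KYSE30 (vector, then knockdown). FN1 passed the filter through KYSE30 only in this set too, so its call is no sign of agreement. TGFBI was at 42.1 and 88.0 FPKM in KYSE30 and 1.06 and 0.995 in KYSE180. TNC was called lower in KYSE180 in the first set (−1.88 ± 0.32, adjusted p = 0.00304) and higher in the second (2.12 ± 0.44, adjusted p = 0.0313).

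In the list of 11 laminin receptors outside the integrin family, tetraspanins and laminin-processing enzymes, 10 were tested and none was called for IFN-β, with BCAM (−0.62 ± 0.19) and CD9 (−0.41 ± 0.19) at the largest values (limma, adjusted p = 0.369 and 0.494). Against KYSE30, 3 were higher and 3 lower in KYSE180 (25.9% and 26.2% of all genes), and 3 higher and 6 lower in KYSE450 (24.9% and 26%). BCAM, a receptor for LAMA5-containing laminins, and CD9, a tetraspanin, were among those higher in KYSE180 (1.96 and 1.83), and CD63 among those lower (−1.15). In the knockdown experiment CD9 was again called higher (1.03 ± 0.17, limma, adjusted p = 0.0187). BCAM (1.17 ± 0.44, adjusted p = 0.122) and CD63 (−0.67 ± 0.17, adjusted p = 0.0524) were not called there. MMP14, a membrane protease that cleaves matrix proteins, was lower in KYSE450 than in KYSE30 (−1.92 ± 0.17, adjusted p = 0.000174). Of 9 partners in TGF-β activation, 7 were tested and none was called for IFN-β, the largest values being −0.37 ± 0.13 for LTBP1 and 0.27 ± 0.18 for TGFB1 (adjusted p = 0.422 and 0.6). TGFB2, one of the TGF-β ligands, was lower in KYSE180 than in KYSE30 (−3.66 ± 0.23, limma, adjusted p = 3.59e-05), and LTBP4, which binds latent TGF-β, was higher (3.51 ± 0.16, adjusted p = 1.34e-05). TGFB2 passed the filter without a KYSE180 library and LTBP4 through KYSE180 only, so both calls are descriptions. In the knockdown experiment TGFB2 was too low to be tested. LTBP4, at 2.69 and 1.86 FPKM in KYSE30 and 36.5 and 29.2 in KYSE180, was called higher in KYSE180 there (3.30 ± 0.20, limma, adjusted p = 0.00238).

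For the knockdown none of the 4 lists had a called gene, in 22, 18, 11 and 7 tested genes. The largest values were −1.71 ± 1.02 for SPP1, 1.43 ± 0.63 for DAG1, the dystroglycan gene, −0.58 ± 0.18 for TNS4 and −0.36 ± 0.20 for LTBP4 (limma, adjusted p = 0.803, 0.798, 0.757 and 0.798). The first 2 rest on 1 line each. SPP1 had −3.88 in KYSE30 and 0.45 in KYSE180. DAG1 had 0.12 in KYSE30 and 2.74 in KYSE180 (9.24 to 67.1 FPKM), where the knockdown could not be checked. TNS4 and LTBP4 were lower in both lines.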

How the data were processed

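Per the labels and file headers, each of 10 libraries has 1 table of FPKM that the authors deposited; TopHat, HTSeq and hg38 appear in the submitters' processing notes without versions or roles. No source used here states the annotation, the strand setting or the depth. In the IFN-β tables, rows of type lncRNA were left out and the remaining FPKM sum to between 988427 and 993533. In the knockdown tables, 2974 rows without a gene name (1.36% to 1.93% of the FPKM) were left out, and rows of 1 name were summed. The remaining FPKM there sum to between 391386 and 419107. Tests took genes with 1 FPKM or more in 2 or more libraries of an experiment. Values were scaled by median-of-ratios factors, taken as log2(FPKM + 1) with a pseudocount of 1, and fitted with limma 3.58.1 (trend and robust, statmod 1.5.0, R 4.3.3) on cell line and treatment, 1 fit per experiment, with 2 and 1 residual degrees of freedom. p-values were adjusted over all genes by Benjamini-Hochberg at 0.05. The fit was also run on simulated data with noise set below the average fitted size, which gives no error rate for the real data.

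The line was the block because same-numbered libraries come from the same cell line; deviations from the group means correlated at 0.90 to 0.94 within lines in the first experiment and at 0.84 in the second. Members, lists and the choice to scale were made with earlier results of these data known. Values in every library of the experiment are given for genes called in any comparison, for the 5 largest changes per treatment and for hemidesmosome genes, LAMA3 and LAMB3, except that 1 gene of the group, kept in fits and counts, is not reported here; of each list, up to 3 called genes by smallest p, or the 2 largest values where none was called. The alternatives were other scalings, a pseudocount of 0.1, no filter, an average of 5 FPKM, no robust option, no block and leaving out lines. Gene positions come from GENCODE release 29 (GRCh38, the build named as hg38), promoters from RefSeq (GRCh38.p14).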

Additional observations from a re-analysis of the deposited data

Results flagged for a closer look

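Some genes moved in opposite directions in 2 lines under the same treatment by at least 0.25 on the scaled log2 scale. With 1 library per arm and line these differences between lines were not tested. After IFN-β, ITGB8 had 0.50 in KYSE30 and −1.38 in KYSE180, and DST had 0.44 and −1.16. ITGA2 had 0.28 in KYSE30 and −0.71 in KYSE180, and COL17A1 had 0.35 in KYSE30 and −0.58 in KYSE450. In all 4 the KYSE30 value was the positive one.

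Between the vector and knockdown libraries, ITGA6 had 1.22 in KYSE30 and −0.27 in KYSE180, and its hemidesmosome partner ITGB4 had 0.32 and −0.71. ITGAV had −1.11 in KYSE30 and 0.38 in KYSE180, and LAMB1 had −0.50 and 0.57. ITGA6 and ITGB4 were thus higher in KYSE30 and lower in KYSE180, and ITGAV and LAMB1 the reverse.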

How the results depend on the processing

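No integrin, laminin or hemidesmosome gene was called for IFN-β or for knockdown under any alternative that was run with a test, and no called line difference changed sign. The count of all genes called for IFN-β was 72, and 248 as deposited (203 higher and 45 lower, against 70 and 2), 29 with no filter, 13 with no replicate block and 63 to 127 when each line was left out in turn, with 127 without KYSE30, 107 without KYSE180 and 63 without KYSE450. Without a line block, no knockdown call was made. For KYSE180 against KYSE30 in the knockdown experiment, 2989 genes were called, and 1649 with no filter. The members called there ranged from 10 to 16 of those tested. In the IFN-β experiment that comparison called 16 to 20, KYSE450 against KYSE30 called 14 to 19 and KYSE450 against KYSE180 called 14 to 20. With the KYSE450 libraries left out, an alternative chosen after seeing the data, KYSE180 against KYSE30 called 18 of 24. Beyond the losses named above, KYSE450 against KYSE180 lost ITGB6 with no filter (adjusted p = 0.0520), LAMC1 as deposited (0.0601) and LAMC3 as deposited (0.0705) and at a pseudocount of 0.1 (0.0552); the cause was not tested. With the libraries of 1 arm alone, no call changed sign, and 13 of 19 called members moved by more than the spread for KYSE180 against KYSE30, 11 of 19 for KYSE450 against KYSE180, 3 of 18 for KYSE450 against KYSE30 and 6 of 15 in the knockdown experiment. Leaving out a line of the knockdown experiment leaves 1 library per arm, and single-arm line differences are likewise values without a test. Depth is unknown, so levels under 1 FPKM have no stated precision.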

Other observations

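The nearest listed protein-coding neighbours that do not overlap ITGB4, LAMA1, ITGA4 and LAMA2 were read from the same tables, as genes chosen after the values were seen. Genes that overlap these 4 were passed over. SAP30BP and H3F3B, which flank ITGB4 without overlapping it, were at 11.7 and 16.5 FPKM and at 105 and 141 FPKM in the 2 KYSE450 libraries, against 30.9 FPKM or more and 221 FPKM or more in the other lines, so both were present where ITGB4 was near 0. Beside LAMA1, ARHGAP28 was at 0.77 and 1.37 FPKM in KYSE450 and at 0.01 FPKM or less elsewhere, while LRRC30 on the other side was at or near 0 in all 6. Beside ITGA4, CERKL was at 0.82 and 1.25 FPKM in KYSE450 and at 1.78 and 1.24 in KYSE30, and was listed at 0 in KYSE180. UBE2E3, on the other side, was at 80.9 and 75.4 FPKM in KYSE30 and between 16.2 and 22.9 in the other lines. Beside LAMA2, PTPRK was at 22.6 and 80.1 FPKM in KYSE450, 40.2 and 45.2 in KYSE30 and 17.1 and 17.9 in KYSE180, and ARHGAP18 was lowest in KYSE450, at 6.36 and 7.20 FPKM against 15.1 or more elsewhere.

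The same line differed in level between the tables of the 2 experiments, which were normalized separately. In KYSE30, LAMA5 was listed at 7.08 FPKM untreated and at 122 FPKM with the control vector, PLEC at 26.1 and 125, ITGB4 at 66.7 and 380, and ITGB6 at 66.4 and 16.0. The FPKM of ITGB4 was 0.333 times that of ITGA6 in the untreated KYSE30 library and 3.10 times in the vector library, and in KYSE180 it was 0.134 and 0.766 times. In both sets the ratio was higher in KYSE30 than in KYSE180. KRT5 in KYSE30 was at 2.91 FPKM untreated and at 117 FPKM with the vector.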
